A study of Mus musculus with 24 samples.

Results

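The comparison described here set the right ventricle of mice 3 months after PSPI surgery (4 arrays) against that of mice 2 months after the same surgery (5 arrays), which are 9 of the 24 arrays of the study. PSPI is the study's name for an operation that loads the right ventricle with both pressure and volume. The samples were chosen by their titles, which give the operation, the month and a replicate number. The other arrays held 5 right ventricles at month 1 after PSPI and 10 from sham-operated mice, and they enter below only as context and in the estimate of the spread. All samples were whole right ventricle, with 1 strain entry (M/FVB/10-12), and each was labelled with Cy3 and hybridised alone to a mouse gene expression array. The labels do not say whether the months are separate animals of 1 cohort, how hard each ventricle was loaded, or whether animals were pooled. The p-values therefore speak only to the spread among these arrays, and part of that spread could be technical.

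The right ventricle pumps blood into the lungs at low pressure, and its muscle thickens and changes its gene expression when it must work against more pressure or move more volume. Over weeks to months such loading is known to bring back genes of the fetal ventricle, to add collagen, and to change calcium handling and mitochondrial fuel use, while blood vessels and immune cells of the tissue respond as well. In whole tissue, fewer cells of a type and less RNA per cell cannot be told apart.

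Levels are given as log2 of the processed signal relative to the 75th percentile of each array, so 0 is that percentile, and the level of a gene is compared between arrays, not with another gene. The test was limma's, on a fit of all 24 arrays whose shared spread the sham and month 1 arrays help to set, with Benjamini-Hochberg adjustment over all genes. Of 12480 genes tested, 2331 (18.7%) passed an adjusted p of 0.05 in month 3 against month 2. Of these, 1118 were higher in month 3 (8.96% of those tested) and 1213 were lower (9.72%). On 762 genes (6.11%) every month 3 array stood above every month 2 array, and on 766 genes (6.14%) every one stood below. Without adjustment 3990 genes had p under 0.05. The share of calls that were higher, 48.0%, depended on the scaling: it was 24.8% of 2996 calls with the percentile taken over all probes, 30.3% of 3072 with quantile normalization, 59.7% of 1294 after normexp background correction and 62.2% of 1290 in the deposited table.

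The arrays were not evenly spread over the 3 slides, and some resembled each other more than replicates usually did. Slide 2 held 1 array of month 3 and 4 of month 2, and slide 3 held 3 of month 3 and 1 of month 2. Over all genes replicate 1 of month 3 was the array of its group nearest to month 2. Its root mean square distance from the month 2 arrays was 0.4603 to 0.5596 on the log2 scale. Replicates 2 to 4 lay 0.6524 to 0.7985 from them. Replicates 2 and 3 of month 3, and replicates 1 and 5 of month 2, were called near-identical, 2 of 6 such pairs in the study. Over the most variable probes those 6 lay 0.3221 to 0.4371 apart, and the other 65 pairs of 1 group 0.5009 to 1.4363. Over all genes the called pairs were not set apart from the rest. There the month 3 pair lay 0.3321 apart and the month 2 pair 0.2836. Sham replicates 8 and 9, not so called, lay 0.3057 apart, and month 1 replicates 1 and 5, so called, 0.4943. With each near-identical pair averaged to 1 sample, 1070 genes passed (8.57%). With slide as a fixed block 921 passed (7.38%), and with only the 9 arrays of both months in the fit 1157 passed (9.27%). Within slide 2 alone 33 genes passed and within slide 3 alone 190, and the count was 3727 without replicate 1 of month 3 and 1402 without replicate 3. Between 36.2% and 56.1% of probes were well above background on the month 3 arrays, against 36.1% to 48.5% on the month 2 arrays.

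**Figure D1:**
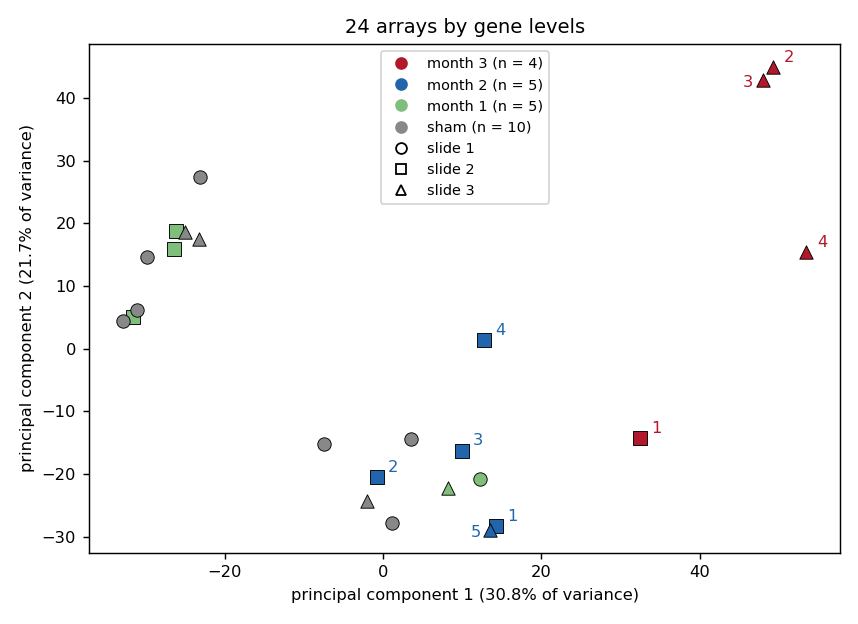
The 24 arrays by their scores on the first (x axis, 30.8% of the variance) and second (y axis, 21.7%) principal component of gene levels, each point 1 array, with colour for the group, shape for the slide and replicate numbers beside months 3 and 2. Replicates 2 to 4 of month 3 sit far right and replicate 1 sits between them and the 5 month 2 arrays.

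The labelled tissue carried its defining markers: all 12 ventricular cardiomyocyte markers were tested, and their mean level was 3.85 to 4.67 on the month 3 arrays, against 3.72 to 4.61 on the month 2 arrays. Of 11 markers listed for lung epithelium 1 was tested, and of 12 for skeletal muscle 3 were; the rest were not well above background throughout any group or carried no probe of that name. Across the 33 gene lists examined, the greatest shares of calls were higher calls among interferon and antigen presentation genes and lower calls among mitochondrial ribosome, calcium handling and chaperone genes. The lists were written with earlier results of these data known, so their counts describe the data and are no independent evidence.

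**Figure D2:**
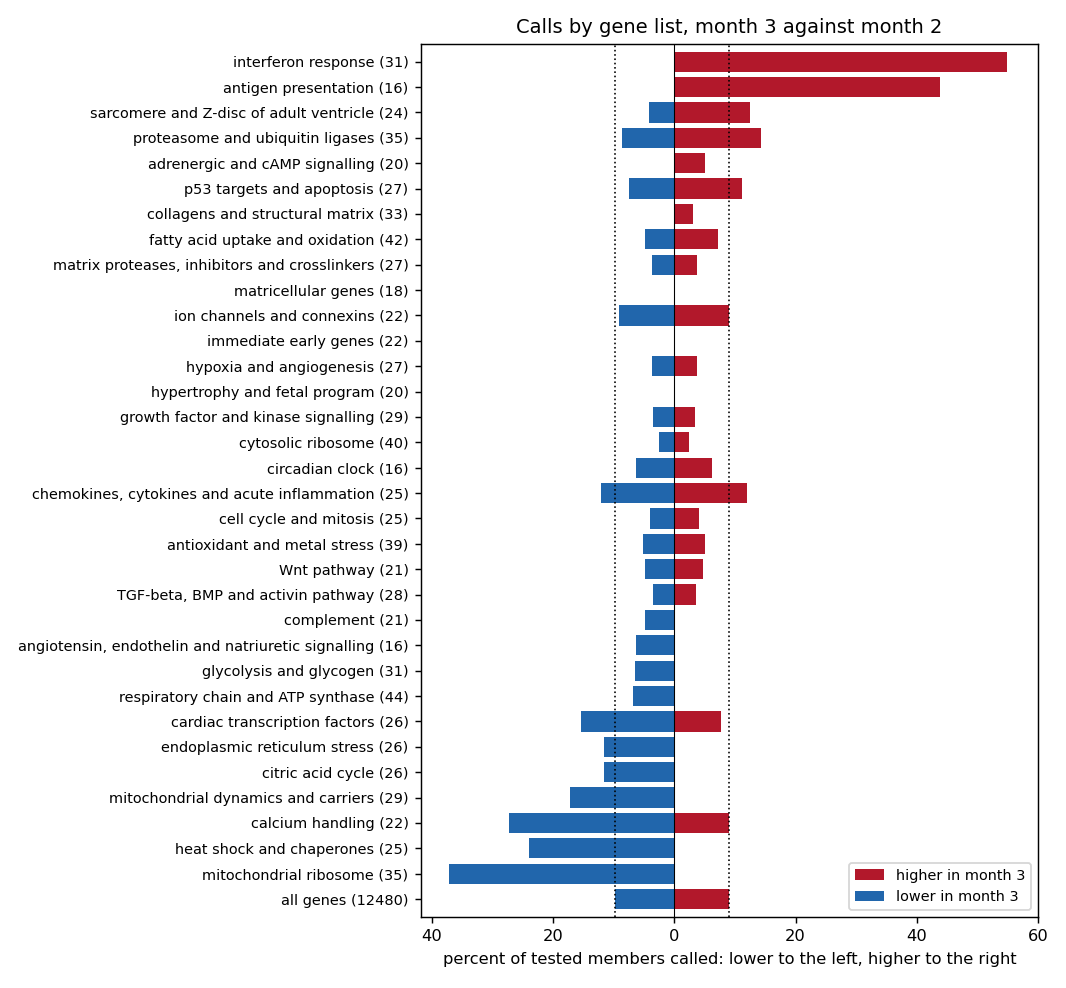
Percent of each gene list's tested members called higher (bars to the right) or lower (bars to the left) in month 3 against month 2, with the number tested in brackets after the list name. The dotted lines mark the shares over all 12480 genes, 8.96% higher and 9.72% lower; interferon response reaches furthest right and mitochondrial ribosome furthest left.

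Many genes induced by interferon were higher in month 3. Interferons are secreted by cells that sense viral or misplaced nucleic acid, and they switch on a set of genes that block viral replication and raise antigen display, partly through a promoter element known as the interferon-stimulated response element. Of 31 tested members of the interferon list 17 were higher, none was lower and 14 did not pass, and the median change was 0.65 on the log2 scale against -0.02 over all genes. The other 8 listed members were not tested, because no probe was well above background throughout a group or none carried the name. With near-identical arrays averaged 8 of the 31 were higher and none lower, and with the slide block 6 were higher and none lower. Leaving out 1 array gave between 9 (without replicate 4 of month 3) and 19 (without replicate 1 of month 3), and 8 to 15 were higher under the other scalings. The median was 0.41 within slide 2 and 0.81 within slide 3.

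Of the 17 called members Ifit1 changed most. Ifit1, an antiviral protein which binds viral RNA that lacks a host cap, lay at -3.67, -3.32, -3.54 and -2.68 in month 3, against -4.88, -5.12, -5.14, -4.91 and -5.0 in month 2. Every month 3 array stood above every month 2 array, and the mean was 3.26-fold higher (log2 1.71, SE 0.26, adjusted p = 0.00011). Its relative Ifit3, which has a near copy whose RNA the probe could share, had levels of -2.59, -2.53, -2.52 and -1.58 in month 3, against -3.37, -3.23, -3.47, -3.88 and -3.24 in month 2, 2.19-fold higher (log2 1.13, SE 0.25, adjusted p = 0.0027). The groups did not overlap there either, and replicate 4 stood highest in month 3 for both genes. Oasl2, a member of the family of 2'-5' oligoadenylate synthetases and their relatives, lay at -2.05, -2.78, -2.45 and -1.24 in month 3, against -3.09, -3.32, -3.1, -2.86 and -3.25 in month 2, again with no overlap (log2 0.99, SE 0.21, adjusted p = 0.002).

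Regulators and membrane effectors of the response rose with them. Usp18, the enzyme that removes ISG15 from proteins and limits interferon receptor signalling, lay at -3.95, -3.46, -4.15 and -2.6 in month 3, against -4.67, -5.17, -4.51, -4.6 and -4.85 in month 2 (log2 1.22, SE 0.3, adjusted p = 0.0069). Bst2, tetherin, which holds budding viruses on the cell surface, lay at -1.47, -1.42, -1.43 and -0.71 in month 3, against -2.3, -2.24, -2.07, -1.84 and -2.16 in month 2 (log2 0.86, SE 0.14, adjusted p = 0.00018). Both genes kept the groups apart, and on both the highest array was replicate 4 of month 3. Gbp3, a guanylate-binding protein of the defence against intracellular microbes, lay at -2.38, -2.03, -2.06 and -1.29 in month 3, against -3.06, -2.98, -2.98, -2.94 and -3.19 in month 2 (log2 1.09, SE 0.24, adjusted p = 0.0028). Isg15 itself, the ubiquitin-like modifier, lay at -0.74, -0.75, -1.08 and 0.46 in month 3, against -1.33, -1.55, -1.35, -1.03 and -1.56 in month 2, with a small overlap (log2 0.84, SE 0.27, adjusted p = 0.031). The other called members, Ifitm3, Stat2, Oas2, Ifi35, Ifih1, Xaf1, Cmpk2, Gbp2, Psmb8 and Psmb9, changed by log2 0.27 for Ifi35 to 1.36 for Oas2. The calls that held with near-identical arrays averaged were those of Ifit1 (adjusted p = 0.0016), Bst2 (0.0039), Oasl2 (0.0065), Ifit3 (0.013), Usp18 (0.025), Gbp3 (0.029), Xaf1 (0.036) and Gbp2 (0.037). Within slide 2 and within slide 3 the log2 difference was 1.34 and 1.82 for Ifit1, 0.64 and 0.97 for Bst2, and 1.04 and 1.09 for Oasl2.

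The promoters of 4 of these genes are shown because interferon is known to act through an element with these letters. They are from RefSeq (mouse build GRCm38.p6), 300 bases from 250 before to 50 after the annotated start, and capitals mark every match of GAAANNGAAA on either strand (TTTCNNTTTC where it lies on the other strand), overlapping matches joined.
Ifit1, chr19:34640639-34640938, plus strand: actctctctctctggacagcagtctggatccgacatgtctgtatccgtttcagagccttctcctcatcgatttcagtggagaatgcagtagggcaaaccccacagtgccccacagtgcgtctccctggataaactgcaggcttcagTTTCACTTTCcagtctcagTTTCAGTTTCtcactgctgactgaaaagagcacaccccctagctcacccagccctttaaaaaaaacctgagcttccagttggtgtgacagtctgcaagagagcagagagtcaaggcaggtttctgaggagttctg
Ifit3, chr19:34583279-34583578, plus strand: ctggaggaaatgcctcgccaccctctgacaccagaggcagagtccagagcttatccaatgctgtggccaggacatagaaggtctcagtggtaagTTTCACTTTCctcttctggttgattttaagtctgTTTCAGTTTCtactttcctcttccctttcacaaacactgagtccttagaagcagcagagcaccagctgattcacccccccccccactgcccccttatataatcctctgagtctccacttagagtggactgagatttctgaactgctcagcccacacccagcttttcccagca
Isg15, chr4:156200769-156201068, minus strand: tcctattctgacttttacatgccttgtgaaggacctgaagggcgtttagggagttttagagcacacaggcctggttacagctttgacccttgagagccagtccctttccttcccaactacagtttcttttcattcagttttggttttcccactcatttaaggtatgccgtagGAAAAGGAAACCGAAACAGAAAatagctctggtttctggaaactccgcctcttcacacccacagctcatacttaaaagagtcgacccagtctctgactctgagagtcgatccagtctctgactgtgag
Bst2, chr8:71537423-71537722, minus strand: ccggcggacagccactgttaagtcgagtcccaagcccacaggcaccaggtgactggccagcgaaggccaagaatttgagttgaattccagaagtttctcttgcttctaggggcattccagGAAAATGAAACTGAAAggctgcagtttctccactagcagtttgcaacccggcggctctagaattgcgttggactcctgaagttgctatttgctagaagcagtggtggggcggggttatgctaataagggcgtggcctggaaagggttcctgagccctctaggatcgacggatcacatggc
Ifit1, Ifit3 and Bst2 each hold 2 matches and Isg15 holds 3, in overlap. The letters GAAANNGAAA occur in 3.44% of 32851 such windows and in 3.48% of the windows of tested genes. Of 26 tested interferon list genes with a window 13 hold them: 9 of the 15 that were higher and 4 of the 11 that did not pass. A match is a description of the sequence and does not show that a factor binds there.

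Some genes of antigen presentation through major histocompatibility complex class I were higher in month 3, with smaller folds. Of 16 tested members of the antigen presentation list 7 were higher and none was lower, with a median of 0.45. Only H2-K1 passed with near-identical arrays averaged, and 2 members passed with the slide block. Leaving out 1 array gave between 3 (without replicate 2 of month 3) and 10 (without replicate 1 of month 3). Psmb8 and Psmb9 stand on both lists. H2-K1, a class I heavy chain, lay at 2.31, 2.98, 2.94 and 2.83 in month 3, against 1.89, 1.75, 2.14, 2.18 and 1.89 in month 2 (1.73-fold, log2 0.79, SE 0.15, adjusted p = 0.00071). The groups did not overlap, and another probe of H2-K1 changed by 0.77 (SE 0.18). The heavy chain H2-D1 lay at 2.1, 2.93, 3.01 and 2.54 in month 3, against 1.86, 1.84, 2.07, 2.14 and 1.91 in month 2 (log2 0.68, SE 0.16, adjusted p = 0.0051), and B2m, the light chain that all class I molecules share, at 2.38, 2.62, 2.65 and 2.37 in month 3, against 2.04, 1.82, 2.16, 2.27 and 1.96 in month 2 (log2 0.46, SE 0.13, adjusted p = 0.017). On B2m the groups were apart, while on H2-D1 replicate 1 of month 3 fell within the month 2 range. H2-K1 and H2-D1 are close relatives, and how far their probes cross-hybridise was not tested. Psmb9, a subunit of the immunoproteasome that cuts peptides for these molecules, lay at -1.49, -0.74, -0.89 and -0.94 in month 3, against -2.02, -1.75, -1.47, -1.29 and -1.91 in month 2 (log2 0.67, SE 0.16, adjusted p = 0.0045). The transporter gene Tap2, the immunoproteasome gene Psmb8 and Nlrc5, the transcriptional activator of class I genes, completed the 7, at log2 0.31, 0.58 and 1.56. Of the class II side of the list, which covers Cd74 and the H2-A, H2-E and H2-DM chains, no member passed. Within slide 2 the median of the list was 0.08 and within slide 3 it was 0.59.

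**Figure D3:**
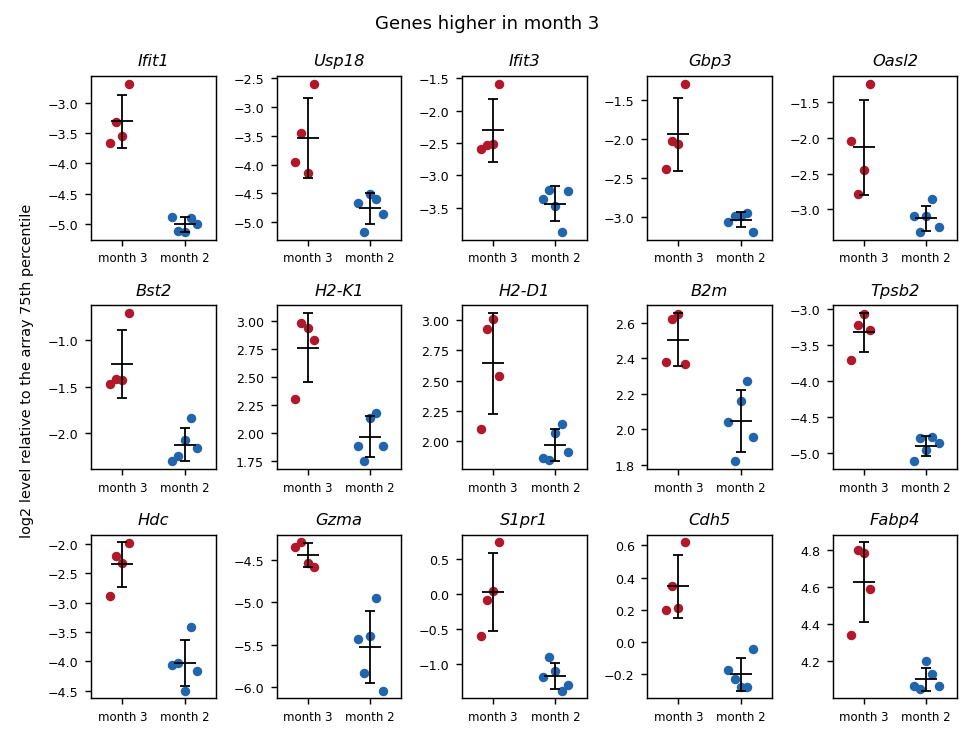
Log2 level relative to the array's 75th percentile (y axis) of 15 genes called higher, each point 1 array, month 3 (4 arrays, red) left of month 2 (5 arrays, blue), with bars for the mean and SD. Ifit1 lay between -3.67 and -2.68 in month 3, all above the month 2 arrays, and Cdh5 and Fabp4 show smaller shifts with no overlap.

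Markers of some immune cells were higher as well, each on few genes. Of 9 mast cell markers 3 were tested and 2 were higher. Tpsb2, a tryptase stored in mast cell granules with a close copy that the probe could share, lay at -3.71, -3.23, -3.08 and -3.29 in month 3, against -5.11, -4.78, -4.95, -4.77 and -4.86 in month 2 (2.96-fold, log2 1.56, SE 0.17, adjusted p = 8.4e-07). Hdc, the enzyme that makes histamine, lay at -2.88, -2.2, -2.33 and -1.98 in month 3, against -4.06, -4.03, -4.5, -3.41 and -4.16 in month 2 (3.21-fold, log2 1.68, SE 0.21, adjusted p = 1.1e-05). Both genes had no overlap between the groups, and both passed with near-identical arrays averaged (adjusted p = 0.00013 and 0.001) and with the slide block (1.2e-05 and 0.00029). The mean level of the 3 tested mast cell markers was -3.71 to -3.01 in month 3, against -4.73 to -4.29 in month 2 and -4.96 to -4.01 in sham arrays. The other 6 of the list were not tested. A second probe of Tpsb2 was well above background on 1 month 2 array and no month 3 array, and changed by -0.12 (SE 0.61).

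Of 18 markers of T cells and natural killer cells 6 were tested and 2 were higher. Gzma, a granule protease of cytotoxic lymphocytes, lay at -4.35, -4.29, -4.54 and -4.58 in month 3, against -5.43, -5.83, -5.4, -4.95 and -6.04 in month 2 (log2 1.09, SE 0.22, adjusted p = 0.0017). Ccl5, a chemokine that activated T cells and macrophages make, lay at -2.94, -3.41, -3.3 and -3.27 in month 3, against -4.32, -4.37, -3.83, -3.69 and -4.34 in month 2 (log2 0.88, SE 0.29, adjusted p = 0.035). The groups did not overlap on either gene, and Gzma also passed with near-identical arrays averaged (adjusted p = 0.021) while Ccl5 did not (0.13). The mean level of the 6 markers was -2.96 to -2.19 in month 3, against -3.64 to -2.68 in month 2, so the ranges overlapped. These markers moved alongside the interferon and antigen presentation genes, and their part in that result was not tested. None of the 4 tested B cell markers passed. Of 18 tested macrophage markers 1 was higher and 1 lower: Cd209f, a lectin of resident macrophages, lay at -3.66, -4.15, -4.49 and -3.4 in month 3, against -2.43, -3.37, -2.54, -2.31 and -2.71 in month 2 (log2 -1.25, SE 0.36, adjusted p = 0.018), and the higher call, Itgam, rests on a probe of simple repeat sequence described below. The same holds for the only called neutrophil marker, Csf3r. The neutrophil protein S100a8 lay at -2.98, -2.84, -2.86 and -5.04 in month 3, against -3.81, -2.97, -2.71, -3.78 and -3.79 in month 2, with overlap (log2 -0.02, SE 0.53, adjusted p = 0.98).

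Chemokine and cytokine genes moved both ways, with 3 of 25 tested members higher and 3 lower. These shares were near those over all genes (8.96% higher and 9.72% lower). The higher members were Ccl5, given above, Ccl19 and Nfkbia. Ccl19, which draws lymphocytes and dendritic cells to lymphoid tissue, lay at -5.78, -4.71, -4.43 and -4.13 in month 3, against -6.12, -6.32, -6.82, -6.22 and -5.51 in month 2 (log2 1.44, SE 0.34, adjusted p = 0.0055), and Nfkbia, the inhibitor of NF-kappa-B, was higher by log2 0.7 (adjusted p = 0.0057). The monocyte attractants went the other way: Ccl7 lay at -3.19, -5.41, -4.93 and -3.93 in month 3, against -2.77, -3.77, -2.63, -3.28 and -2.4 in month 2 (log2 -1.39, SE 0.33, adjusted p = 0.0047), and Ccl2 was lower (log2 -0.87, adjusted p = 0.045). Replicates 2 and 3 of month 3, the near-identical pair, were lowest on both. With the slide block 1 member was higher and 1 lower. With near-identical arrays averaged Ccl19 alone of the 6 passed (adjusted p = 0.038, with 0.094 for Ccl7), though its other probes, dim on some arrays, changed by -0.28 and 0.70. The third lower gene was Socs3, the feedback inhibitor of cytokine receptors (log2 -0.67, SE 0.22, adjusted p = 0.034). Among complement genes 1 of 21 passed, the adipocyte product Cfd, taken up below.

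Some endothelial genes were higher in month 3 by modest amounts. Of 20 endothelial markers, all tested, 7 were higher, none was lower and 13 did not pass, with a median of 0.41, and their mean level was 0.10 to 0.46 in month 3, against -0.21 to -0.11 in month 2 and -0.10 to 0.05 in sham arrays. With near-identical arrays averaged 3 were higher, with the slide block 1 was, and leaving out 1 array gave 4 (without replicate 3 of month 3) to 7. Fabp4, a fatty acid binding protein of capillary endothelium and fat, lay at 4.34, 4.8, 4.78 and 4.59 in month 3, against 4.07, 4.05, 4.2, 4.13 and 4.07 in month 2 (log2 0.52, SE 0.1, adjusted p = 0.0013). Cdh5, the cadherin of endothelial junctions, lay at 0.2, 0.35, 0.21 and 0.62 in month 3, against -0.17, -0.23, -0.28, -0.28 and -0.04 in month 2 (log2 0.54, SE 0.13, adjusted p = 0.0055). Neither gene's groups overlapped. Vwf, the clotting factor stored in endothelial cells, lay at 2.31, 2.47, 2.53 and 2.19 in month 3, against 1.58, 1.65, 1.0, 1.63 and 1.38 in month 2 (log2 0.92, SE 0.28, adjusted p = 0.023). Esam, Egfl7, Gpihbp1 and Ly6c1 were the other called members, at log2 0.64, 0.53, 0.67 and 0.49. Flt1, a receptor for vascular endothelial growth factor, was also higher at 1.6, 1.82, 1.78 and 2.13 in month 3, against 1.4, 1.47, 1.28, 1.24 and 1.53 in month 2 (log2 0.45, SE 0.11, adjusted p = 0.0049), as was S1pr1, the sphingosine phosphate receptor that steadies vessel walls, at -0.6, -0.08, 0.05 and 0.75 in month 3, against -1.2, -0.9, -1.11, -1.39 and -1.31 in month 2 (log2 1.21, SE 0.19, adjusted p = 0.00015). The second is in no list and was named after its values were seen. Among smooth muscle and pericyte markers 2 of 15 were higher, a share near the 8.96% over all genes. They were Notch3 at log2 0.47 (adjusted p = 0.039) and Abcc9 at log2 0.63 (adjusted p = 0.0072). Abcc9 is a subunit of the ATP-sensitive potassium channel of pericytes and muscle. Egln1, the oxygen-sensing hydroxylase that marks hypoxia-inducible factor for breakdown, was lower, at -2.41, -2.81, -2.66 and -3.47 in month 3, against -1.95, -1.72, -1.93, -1.92 and -2.09 in month 2 (log2 -0.91, SE 0.17, adjusted p = 0.00067).

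Among genes of calcium handling in the cardiomyocyte more calls were lower than higher. Each heartbeat releases calcium from the sarcoplasmic reticulum through the ryanodine receptor, and the pump SERCA returns it, under restraint by phospholamban. Of 22 tested members 6 were lower, 2 were higher and 14 did not pass. Over all genes 9.72% were lower and 8.96% higher. With near-identical arrays averaged 4 were lower and 2 higher, and with the slide block 4 were lower and 1 higher. Casq1, a calcium-storing protein known best from skeletal muscle, lay at -3.28, -3.9, -4.15 and -2.17 in month 3, against -1.44, -1.95, -1.8, -1.46 and -1.3 in month 2, which is 0.29 times the month 2 level (log2 -1.78, SE 0.34, adjusted p = 0.00093). The groups did not overlap, and the difference was -1.62 within slide 2 and -2.11 within slide 3. Pln, phospholamban, lay at 3.31, 2.47, 2.72 and 1.99 in month 3, against 3.63, 3.42, 3.62, 3.66 and 3.22 in month 2 (log2 -0.89, SE 0.19, adjusted p = 0.0026), with replicate 1 of month 3 inside the month 2 range and a difference of -0.27 within slide 2. Jph2, junctophilin, which holds the sarcoplasmic reticulum to the surface membrane, lay at -1.97, -2.27, -2.13 and -2.57 in month 3, against -1.64, -1.4, -1.47, -0.99 and -1.67 in month 2, with no overlap (log2 -0.8, SE 0.17, adjusted p = 0.002). Cacnb2, a subunit of the L-type calcium channel, was lower (log2 -0.8, adjusted p = 0.0026), though the mean of its kept probes changed by 0.0. Likewise lower were Casq2 and Asph, partners of the release channel, with log2 -0.37 and -0.36 (adjusted p = 0.017 and 0.048). The 2 higher members were Atp2b4, a calcium pump of the surface membrane, at -4.96, -4.06, -4.1 and -3.96 in month 3, against -5.51, -5.85, -5.28, -4.79 and -5.18 in month 2 (log2 1.05, SE 0.22, adjusted p = 0.0019), and Itpr1, the inositol trisphosphate receptor, at log2 0.32 (adjusted p = 0.031).

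Among ion channels and connexins 2 of 22 were lower and 2 higher, near the shares over all genes (9.72% lower and 8.96% higher). Kcnip2, the partner that the transient outward potassium current needs, lay at -1.97, -3.18, -2.96 and -3.26 in month 3, against -1.63, -1.19, -1.45, -1.4 and -1.48 in month 2, 0.376 times the month 2 level (log2 -1.41, SE 0.3, adjusted p = 0.0023). Its sham arrays ranged over -3.12 to -1.26, and 3 of 4 month 3 arrays lay near or below the lower end of that range, while the month 2 arrays lay in or above its upper part. Gja1, connexin 43 of the intercalated disc, was lower (log2 -0.49, adjusted p = 0.041, 0.1 with near-identical arrays averaged). Kcna5, a subunit of the ultrarapid delayed rectifier current, was higher at -3.92, -2.98, -2.75 and -2.64 in month 3, against -4.54, -3.27, -4.15, -4.61 and -4.3 in month 2 (log2 1.1, SE 0.31, adjusted p = 0.016), and replicate 1 of month 3 fell within the month 2 range.

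Some mitochondrial genes of protein synthesis and genome upkeep were lower in month 3. Mitochondria make a few subunits of the respiratory chain on ribosomes of their own, whose proteins are encoded in the nucleus. Of 35 mitochondrial ribosomal protein genes, all tested, 13 were lower, none was higher and 22 did not pass, and the median was -0.25, with 31 of the 35 below 0. With near-identical arrays averaged 9 were lower, and with the slide block 5 were, none higher in either. Leaving out 1 array gave 7 (without replicate 4 of month 3) to 17 (without replicate 1 of month 3), and 8 to 17 were lower under the other scalings. The scalings also moved the count over all genes, which was 1213 lower in the main fit. The 17 came with the percentile over all probes, where 2254 of all genes were lower. The 8 came with normexp correction and in the deposited table, where 521 and 487 were lower. The median was -0.18 within slide 2 and -0.16 within slide 3, against 0.03 and -0.06 over all genes. The fall within slide 2 was not particular to this list. There the medians were -0.32 for the respiratory chain, -0.25 for the citric acid cycle and -0.15 for the cytosolic ribosome. Within slide 3 the medians of those lists were 0.45, 0.09 and 0.33. Mrpl37, of the large subunit, lay at -1.89, -2.43, -2.24 and -2.88 in month 3, against -1.65, -1.12, -1.61, -1.47 and -1.58 in month 2 (log2 -0.87, SE 0.16, adjusted p = 0.0007). Mrps2, of the small subunit, lay at -1.73, -1.94, -2.21 and -2.27 in month 3, against -1.25, -1.5, -1.3, -1.45 and -1.49 in month 2 (log2 -0.64, SE 0.13, adjusted p = 0.0012). Mrpl40, also of the large subunit, lay at 0.13, -0.06, -0.13 and 0.01 in month 3, against 0.33, 0.35, 0.41, 0.4 and 0.4 in month 2 (log2 -0.39, SE 0.07, adjusted p = 0.0005). Other probes of Mrps2 and Mrpl40 changed by -1.09 (SE 0.23) and -0.34 (SE 0.10). On these 3 genes every month 3 array stood below every month 2 array, and replicate 1 was the nearest to month 2. The called members spanned log2 -0.87 for Mrpl37 to -0.27 for Mrps30.

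Some genes that copy and pack mitochondrial DNA were lower as well. Tfam, which packs mitochondrial DNA and starts its transcription, lay at -0.93, -1.69, -1.6 and -1.79 in month 3, against -0.75, -0.59, -0.76, -0.71 and -0.67 in month 2 (0.573 times, log2 -0.8, SE 0.12, adjusted p = 5.3e-05), and its other probes changed by -1.06 and -1.09. Twnk, the helicase of its replication, lay at -3.6, -3.99, -4.11 and -4.35 in month 3, against -3.44, -3.05, -3.22, -3.47 and -3.51 in month 2 (log2 -0.68, SE 0.15, adjusted p = 0.0025). Polg, the polymerase, was lower (log2 -0.31, adjusted p = 0.032). With Opa1 and Mff, which fuse inner membranes and recruit the fission machinery, these were the 5 lower members of the mitochondrial dynamics list. It held 29 members, and none was higher, against 9.72% lower and 8.96% higher over all genes. Of the 5, Tfam and Twnk passed with near-identical arrays averaged (adjusted p = 0.0052 and 0.017), and 2 of the list were lower with the slide block. Ppargc1a, the coactivator that drives mitochondrial biogenesis, was higher at 0.8, 2.18, 2.26 and 0.55 in month 3, against 0.19, 0.83, 0.64, 0.32 and 0.24 in month 2 (log2 1.0, SE 0.29, adjusted p = 0.02). Its rise was carried by replicates 2 and 3, and it did not pass with that pair averaged (adjusted p = 0.2).

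Genes outside the lists fell with them. Ppif, cyclophilin D, the regulator of the permeability transition pore, lay at -1.68, -1.89, -1.84 and -2.42 in month 3, against -0.95, -0.96, -0.86, -0.83 and -0.98 in month 2 (0.486 times, log2 -1.04, SE 0.14, adjusted p = 3.2e-05). Oma1, a stress-activated protease of the inner membrane that cuts OPA1, lay at -3.45, -4.89, -3.85 and -3.82 in month 3, against -2.96, -2.6, -2.87, -2.89 and -2.7 in month 2 (log2 -1.2, SE 0.18, adjusted p = 0.00011). The groups did not overlap on either gene, and both were named after their values were seen.

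In fuel oxidation the calls were few, with shares near or below those over all genes (9.72% lower and 8.96% higher). In the citric acid cycle list 3 of 26 were lower and none higher: Suclg2, a succinate-CoA ligase subunit, lay at -1.23, -1.82, -1.69 and -2.07 in month 3, against -0.75, -0.41, -0.83, -0.99 and -0.61 in month 2 (log2 -0.99, SE 0.16, adjusted p = 0.00022), and Pdha1 of pyruvate dehydrogenase and Idh3b of isocitrate dehydrogenase changed by log2 -0.68 and -0.46 (adjusted p = 0.0039 and 0.04). In the respiratory chain 3 of 44 were lower, among them the complex I subunits Ndufa10 and Ndufs8 at log2 -0.56 and -0.54, and none was higher. In each of these lists 2 members were lower with near-identical arrays averaged and 1 with the slide block. The respiratory chain list did not keep one direction between slides. Within slide 2 all 44 were below 0 in month 3 (median -0.32), and within slide 3 38 of 44 were above 0 (median 0.45). Cytosolic ribosome genes turned likewise, with 34 of 40 below 0 within slide 2 and 37 above 0 within slide 3. Of the ventricular cardiomyocyte markers all 12 were below 0 within slide 2 and 8 were above 0 within slide 3. Among fatty acid genes 2 of 42 were lower and 3 higher, against 1 and 1 with near-identical arrays averaged and 1 and 2 with the slide block. Slc25a20, the carrier that brings acylcarnitine into mitochondria, lay at -1.74, -2.27, -2.19 and -2.95 in month 3, against -1.39, -1.16, -1.1, -1.27 and -1.35 in month 2 (log2 -1.03, SE 0.19, adjusted p = 0.00056), and Acads, an acyl-CoA dehydrogenase of short chains, was lower (log2 -0.57, adjusted p = 0.044). Hadh, of the third step of beta-oxidation, was higher at 1.56, 2.25, 2.2 and 1.88 in month 3, against 1.04, 1.35, 1.24, 1.36 and 1.17 in month 2 (log2 0.74, SE 0.2, adjusted p = 0.014), beside Fabp4 and Ppargc1a above. Of 31 glycolysis genes Pygb and Pgk1 were lower (log2 -0.6 and -0.34, adjusted p = 0.013 and 0.035), and none was higher.

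Some chaperone genes were lower in month 3. Of 25 tested heat shock and chaperone genes 6 were lower, none was higher and 19 did not pass, with a median of -0.26. With near-identical arrays averaged 4 were lower, with the slide block 2 were, and leaving out 1 array gave 4 (without replicate 2 of month 2) to 12 (without replicate 1 of month 3). Hspe1, which caps the mitochondrial chaperonin, lay at 1.71, 1.36, 1.49 and 1.33 in month 3, against 1.97, 1.96, 1.85, 1.89 and 1.86 in month 2 (log2 -0.43, SE 0.09, adjusted p = 0.0016), and its other probes changed by -0.05 (SE 0.38) and -0.35 (SE 0.14). Ahsa1, which activates the ATPase of HSP90, lay at 1.96, 1.79, 1.79 and 1.88 in month 3, against 2.3, 2.3, 2.17, 2.26 and 2.01 in month 2 (log2 -0.35, SE 0.09, adjusted p = 0.011). Both genes kept the groups apart. Fkbp4, an HSP90 partner in steroid receptor complexes, was lower (log2 -0.72, adjusted p = 0.00085), on a probe that holds a simple repeat. Cct3 and Cct2 of the cytosolic chaperonin and Dnajb9 were the other called members, at log2 -0.49, -0.3 and -0.41, but the mean of the kept probes of Dnajb9 changed by 0.13. In endoplasmic reticulum stress 3 of 26 were lower and none higher, with Ddit3, the stress-induced factor CHOP, at -2.49, -2.73, -2.67 and -2.61 in month 3, against -2.09, -2.22, -2.22, -2.05 and -2.15 in month 2 (log2 -0.48, SE 0.09, adjusted p = 0.001), beside Atf6 and Sel1l at log2 -0.56 and -0.3. Of the 3, 2 passed with near-identical arrays averaged and 1 with the slide block. The share of that list that was lower was near the 9.72% over all genes. Proteasome and ubiquitin ligase genes were split, 5 of 35 higher and 3 lower, against 8.96% higher and 9.72% lower over all genes. With near-identical arrays averaged, as with the slide block, 1 was higher and 2 lower. Fbxo32, atrogin-1, the muscle ubiquitin ligase of atrophy, was higher at -0.88, -0.55, -0.42 and -0.4 in month 3, against -1.64, -1.29, -0.97, -1.19 and -1.56 in month 2 (log2 0.77, SE 0.16, adjusted p = 0.0021), whereas the core subunit Psmb1 was lower (log2 -0.43, adjusted p = 0.0036).

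**Figure D4:**
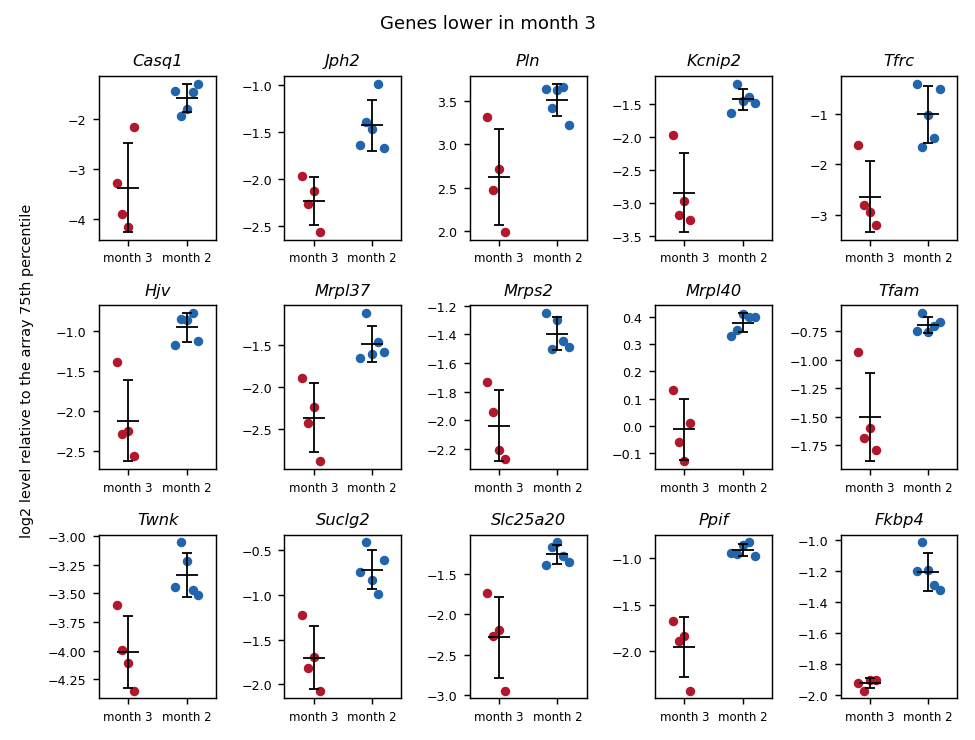
Log2 level relative to the array's 75th percentile (y axis) of 15 genes called lower, each point 1 array, month 3 (4 arrays, red) left of month 2 (5 arrays, blue), with bars for the mean and SD. Ppif lay between -2.42 and -1.68 in month 3, all below the month 2 arrays, and on most panels replicate 1, the leftmost red point, is the nearest to month 2.

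For the markers of load that define hypertrophy no change passed the test in the 24-array fit. None of 20 tested members of the hypertrophy and fetal program list passed, and 6 of them were above 0. Myh7, the slow beta myosin heavy chain of the fetal and loaded mouse ventricle, lay at 5.4, 5.09, 5.01 and 5.62 in month 3, against 5.49, 4.67, 5.53, 5.63 and 4.85 in month 2 (log2 0.05, SE 0.89, adjusted p = 0.98). Nppa and Nppb, the natriuretic peptides that stretched muscle releases, differed by -0.02 (SE 1.24) and -0.24 (SE 0.99). Ankrd1, a stretch-responsive cofactor, differed by -0.02 (SE 0.55). These standard errors are from the 24-array fit, in which 4 of 10 sham arrays and 2 of 5 month 1 arrays had Myh7 at or above the lowest array of months 3 and 2. In the fit on the 9 arrays alone the SE was 0.17 for Ankrd1 and still none of these 4 genes passed (adjusted p = 0.92, 0.98, 0.62 and 0.95 for Myh7, Nppa, Nppb and Ankrd1). Myh6, the fast alpha myosin of the adult mouse heart, lay at 5.49, 7.37, 7.4 and 6.16 in month 3, against 5.91, 5.27, 5.65, 6.31 and 4.63 in month 2 (log2 1.05, SE 0.44, adjusted p = 0.1), with replicates 2 and 3 of month 3 highest.

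Acta1, the skeletal alpha-actin that loaded ventricles re-express, is the member of that list on which the fits differed. It lay at 3.17, 1.42, 1.62 and 2.72 in month 3, against 4.38, 3.47, 4.14, 5.21 and 4.07 in month 2, with no overlap and a mean 0.247 times that of month 2. In the 24-array fit it did not pass (log2 -2.02, SE 0.94, adjusted p = 0.14), and in the 9-array fit, with an SE of 0.42, it did (adjusted p = 0.021), with Myl4 and Myl7 of the same list, given with the atrial genes below. Sarcomere genes of the adult ventricle had 3 of 24 higher and 1 lower, against 8.96% and 9.72% over all genes. The higher were Myh14, Myom2 and Nebl at log2 0.49, 0.67 and 0.74, and the lower was Ldb3 of the Z-disc at log2 -0.51. None of the 4 passed with near-identical arrays averaged.

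Few matrix genes passed the test. Collagens and structural matrix genes had 1 of 33 higher and none lower, and none of 18 matricellular genes passed. Neither list kept one direction between slides. Within slide 2, 30 of the 33 and 16 of the 18 were above 0. Within slide 3, 27 of the 33 and 15 of the 18 were below 0. Col1a1, the main collagen of fibrosis, lay at 2.2, 0.38, 0.54 and 2.37 in month 3, against 3.15, 1.82, 2.04, 1.88 and 2.67 in month 2 (log2 -0.94, SE 0.41, adjusted p = 0.12), and Col3a1 at 3.06, 1.25, 1.47 and 3.18 in month 3, against 3.73, 2.72, 2.96, 2.69 and 3.48 in month 2 (log2 -0.88, SE 0.41, adjusted p = 0.14). On both genes replicates 2 and 3 of month 3 lay below every month 2 array while replicates 1 and 4 lay within the month 2 range. Postn, periostin of activated fibroblasts, lay at 0.27, -0.21, -0.45 and 0.73 in month 3, against 0.49, -0.91, -0.39, -0.81 and 0.55 in month 2, with overlap (log2 0.3, SE 0.71, adjusted p = 0.82). Fbln2, a matrix protein that binds fibronectin and elastic fibres, was the 1 called member, higher at 1.84, 1.6, 1.78 and 2.09 in month 3, against 1.56, 1.0, 1.16, 1.0 and 1.53 in month 2 (log2 0.58, SE 0.19, adjusted p = 0.036). Adamts5, a protease of proteoglycans, was higher at -3.7, -3.48, -3.65 and -3.34 in month 3, against -4.42, -4.33, -4.63, -4.4 and -4.66 in month 2, with no overlap (log2 0.95, SE 0.21, adjusted p = 0.0029), but another probe of it, well above background on all 9 arrays, changed by 0.24 (SE 0.30). Plod1, a collagen lysyl hydroxylase, was lower (log2 -0.73, adjusted p = 0.016), and another probe of it, likewise well above background, changed by -0.18 (SE 0.15). Fibroblast markers had 3 of 14 lower, against 9.72% over all genes. Dpt lay at -0.62, -3.93, -3.64 and -0.96 in month 3, against -0.45, -0.35, -0.32, -1.01 and -0.36 in month 2 (log2 -1.79, SE 0.48, adjusted p = 0.012), and Tcf21 and Ddr2 were lower (log2 -0.67 and -0.4). None of the 3 passed with the near-identical arrays averaged, and the mean level of the 14 markers was 0.60 to 1.46 in month 3, against 1.08 to 1.46 in month 2.

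Several genes of cell types next to the ventricle wall varied widely. The atrial genes Sln, Myl7 and Myl4 were low on every month 3 array. Sln, sarcolipin, a small inhibitor of the calcium pump that mice express mainly in the atria, lay at -4.63, -4.72, -6.12 and -2.91 in month 3, against 2.27, -0.75, 1.95, -1.73 and 2.36 in month 2. Myl7 and Myl4, the atrial myosin light chains, lay at -7.06, -7.2, -7.27 and -5.91 in month 3, against -0.89, -4.31, -0.47, -4.67 and -0.85 in month 2, and at -1.86, -2.1, -1.98 and -0.3 in month 3, against 3.92, 0.9, 3.57, 0.04 and 3.9 in month 2. Myl7 was well above background on 1 of 4 month 3 arrays and Sln on 3 of 4, so the size of their change is uncertain. No month 3 array reached the month 2 arrays on these 3 genes, and the measured differences were -5.41, -4.62 and -4.02 on the log2 scale. They did not pass in the 24-array fit (adjusted p = 0.076 for Sln, 0.15 for Myl7 and 0.099 for Myl4) and passed in the 9-array fit (0.01, 0.017 and 0.022). Sham levels of Sln ranged over -5.47 to 5.24. Of 11 tested atrial markers 1 was called, Kcna5 above, in the other direction. How much atrial tissue each sample held was not measured.

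Some platelet genes fell too. Of 10 platelet and megakaryocyte markers 5 were tested and 2 were lower, with all 5 below 0. Ppbp, a chemokine of platelet granules, lay at -1.56, -4.26, -4.1 and -3.46 in month 3, against 0.78, -1.29, 0.11, -0.6 and 0.53 in month 2 (log2 -3.25, SE 0.74, adjusted p = 0.0039), and Gp9, part of the receptor for von Willebrand factor, at -2.72, -5.08, -4.78 and -4.85 in month 3, against -0.33, -2.69, -1.06, -1.79 and -0.91 in month 2 (log2 -3.0, SE 0.75, adjusted p = 0.0074). Pf4, another granule chemokine, was closer at 1.05, 0.33, 0.39 and 0.46 in month 3, against 1.58, 0.52, 1.05, 0.77 and 1.64 in month 2, with overlap (log2 -0.56, SE 0.27, adjusted p = 0.15). The mean level of the 5 was -3.33 to -1.79 in month 3, against -1.99 to -0.24 in month 2 and -3.63 to -0.85 in sham arrays. Ppbp and Gp9 passed with the slide block (adjusted p = 0.027 and 0.049) and not with near-identical arrays averaged (0.072 and 0.094). Of 7 tested adipocyte markers 1 was lower: Cfd, adipsin, lay at -3.0, -4.22, -4.45 and -5.85 in month 3, against -1.07, -1.53, -0.78, -2.2 and -1.18 in month 2 (log2 -3.03, SE 0.96, adjusted p = 0.03). Adipoq, adiponectin, was not well above background on any month 3 array and was put at 3.06-fold lower than in month 2 (adjusted p = 0.18). All 5 month 2 arrays measured it, at -4.81, -5.18, -4.43, -5.16 and -4.66. The size of its fall is uncertain, since no month 3 array measured it. The part that blood, fat or atrial tissue in the dissected samples plays in other results was not tested.

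The 15 greatest falls among genes that also passed with near-identical arrays averaged included an iron uptake gene. Tfrc, the transferrin receptor through which cells take up iron, lay at -1.61, -2.79, -2.93 and -3.2 in month 3, against -0.41, -1.65, -1.02, -1.49 and -0.52 in month 2, 0.326 times the month 2 level (log2 -1.62, SE 0.36, adjusted p = 0.0033). Replicate 1 of month 3 lay within the month 2 range, and the difference was -0.47 within slide 2 and -2.45 within slide 3. Its other probes changed by -0.75 (SE 0.39) and -0.57 (SE 0.31). Hjv, hemojuvelin, a coreceptor for bone morphogenetic proteins that controls iron balance and is made in skeletal and heart muscle, lay at -1.39, -2.29, -2.25 and -2.57 in month 3, against -1.17, -0.85, -0.86, -0.77 and -1.12 in month 2, with no overlap (log2 -1.17, SE 0.25, adjusted p = 0.002), and was named after its values were seen. Slc47a1, an exporter of organic cations, lay at -2.71, -4.38, -4.23 and -3.85 in month 3, against -2.26, -2.29, -2.47, -2.37 and -2.54 in month 2 (log2 -1.41, SE 0.21, adjusted p = 9.8e-05). Rnls, renalase, a secreted flavoprotein oxidase, lay at -3.18, -4.01, -3.98 and -4.24 in month 3, against -2.49, -2.58, -2.45, -2.47 and -2.52 in month 2 (log2 -1.35, SE 0.18, adjusted p = 2e-05). On both genes every month 3 array stood below the month 2 arrays, which lay close together.

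Ptov1, a gene on chromosome 7, had the greatest fall of these 15. It lay at -1.96, -1.57, -1.68 and -2.59 in month 3, against 0.17, 0.45, -0.11, -0.04 and 0.02 in month 2 (0.242 times, log2 -2.05, SE 0.43, adjusted p = 0.002). Its neighbour by the RefSeq gene order, Med25, a Mediator subunit, whose probe holds a simple repeat, lay at -2.18, -1.9, -1.84 and -2.72 in month 3, against -0.65, -0.43, -0.94, -0.54 and -0.71 in month 2 (log2 -1.51, SE 0.31, adjusted p = 0.0019). The groups were apart on both. Sham levels were -1.8 to -0.54 for Ptov1 and -2.39 to -1.49 for Med25, so on both genes month 3 lay nearer to sham than month 2 did. Within slides 2 and 3 the differences were -2.08 and -1.96 for Ptov1 and -1.54 and -1.45 for Med25. The rest of the 15 greatest falls, besides Casq1 and Kcnip2 above, were Lrch4, Mme, Smarcd1, Gna12, Ccdc69, Mrgprh, Hsdl1 and Ampd3, between log2 -1.51 for Lrch4 and -1.2 for Ampd3. Each of these 8 had at least 1 month 3 array on which its probe was not well above background, so their folds are less certain. Of the 15, 7 were well above background on all 9 arrays.

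Of the 15 greatest rises among genes that also passed with near-identical arrays averaged 9 were read by probes that contain simple repeats. The 15 included Acot3, Rsph4a, Pgbd1, Sfi1, Fmn2, Proz, Klhl1, Slc35e2, Ulk3, Pign, Tssk5, Hsd3b2, Mcm8 and Aff3, between log2 4.4 for Acot3 and 2.9 for Aff3. The 60-base probes of 4 of these genes are given here with a second probe of 1 of them, as the array's design gives them (positions in mouse build mm9, runs of the repeat in capitals), because the repeats recur across different genes.
Acot3 probe, chr12:85400452-85400511, plus strand: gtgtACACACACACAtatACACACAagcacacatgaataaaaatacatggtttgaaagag
Fmn2 probe, chr1:176752018-176752077, plus strand: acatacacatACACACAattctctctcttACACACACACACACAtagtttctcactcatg
Pign probe, chr1:107418310-107418369, minus strand: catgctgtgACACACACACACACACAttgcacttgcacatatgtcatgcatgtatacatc
Ulk3 probe, chr15:19075671-19075730, minus strand: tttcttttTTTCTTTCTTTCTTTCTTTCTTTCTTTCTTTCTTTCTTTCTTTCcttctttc
Ulk3 other probe, chr9:57443964-57444023, plus strand: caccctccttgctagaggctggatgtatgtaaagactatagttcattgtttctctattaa
The second Ulk3 probe has no such repeat, was well above background on all 9 arrays and changed by -0.30 (SE 0.18), whereas the probe in use changed by 3.32 (SE 0.25). The probe in use for Ulk3, a kinase gene on chromosome 9, is placed by the design on chromosome 15 and consists almost wholly of a TTTC repeat. Fmn2, a formin of the actin skeleton, read -2.15, -1.05, -0.26 and -0.23 in month 3, against -5.09, -4.55, -4.97, -2.96 and -4.66 in month 2 on its repeat probe. The enzyme of glycolipid anchor synthesis Pign read -0.56, 0.78, 1.28 and 1.19 in month 3, against -3.19, -2.53, -2.71, -1.45 and -2.76 in month 2. Each was higher on all 4 month 3 arrays, with replicate 1 the lowest of them. Over the 15 genes 11 had other probes, 13 in all, which changed by -0.58 to 2.29 with a median of 0.55, and 1 of the 13 changed by more than 1. Only the Ulk3 probe of these 13 was well above background on every array of both months.

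The repeat probes moved together whatever gene they were assigned to. Of 112 kept probes with ACACACAC the median change was 1.99 and 72.3% rose by more than 1, whereas of 187 with the complement GTGTGTGT the median was 0.32 and 6.42% did. Of 21 probes with the telomere-type repeat CCCTAACC the median was 1.93 (76.2% above 1), against 0.18 (7.69%) for 13 with GGTTAGGG. For AGGAGGAGG (54 probes) and its complement CCTCCTCCT (32 probes) the medians were 1.80 and 0.63, with 39 and 8 of the probes above 1. Over all 21055 kept probes the median was 0.03, with 6.58% above 1 and 0.841% below -1. A probe was kept where at least 1 group detected it on all its arrays, so dim probes could enter through month 3 alone. That filter bears on the shares above 1, and how far was not tested. These motifs, searched on the probe strand alone and sharing 1 probe between CCCTAACC and AGGAGGAGG, were picked after the values were seen. They occur in 0.35% (ACACACAC), 0.0449% (CCCTAACC) and 0.16% (AGGAGGAGG) of the 55681 probes of the array.

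Array by array, the median of the ACACACAC probes relative to the sham mean was 0.81 to 2.34 in month 3, against -0.32 to 0.51 in month 2, -0.17 to 0.17 in month 1 and -0.24 to 0.27 in sham. For the telomere-type probes it was 1.07 to 2.32 in month 3, against -0.63 to 0.15 in month 2. Replicate 1, the month 3 array on slide 2, stood above the 4 month 2 arrays of its slide on ACACACAC as well, at 0.81. Among genes called higher by more than 2 on the log2 scale, 58 of 115 (50.4%) were read by a probe with a simple repeat, compared with 20.1% of all genes called higher, 2.72% of those called lower and 811 of all 12480 tested. Without such probes 2082 of 11839 genes passed. The filter on dim probes bears on these shares as well, and the cause of the repeat signal was not tested.

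**Figure D5:**
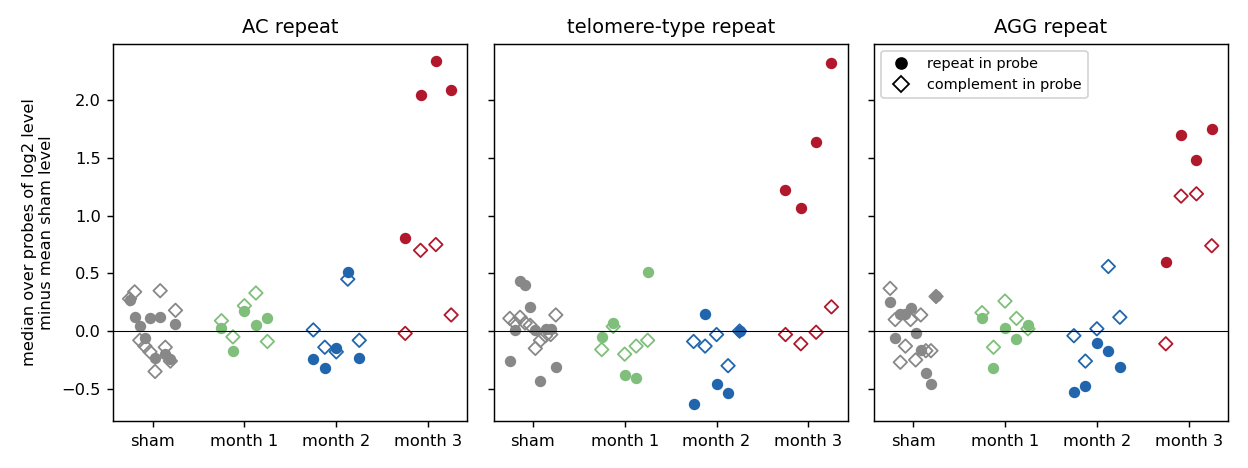
Median over probes of the log2 level minus the mean sham level (y axis) for each array, by group in time order (x axis), for probes with a repeat (filled circles) and with its complement (open diamonds). Month 3 arrays lie at 0.81 to 2.34 for the AC repeat, above every other array, and the complement probes of the AC repeat reach 0.75 at most in month 3.

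Of the 15 greatest rises, 6 had no simple repeat in the probe. Hsd3b2, a steroid dehydrogenase of a family with close copies, lay at 3.11, 4.26, 3.73 and 3.9 in month 3, against 0.38, 0.62, 0.74, 1.37 and 0.32 in month 2 (log2 3.06, SE 0.23, adjusted p = 7.8e-09), well above background on all 9 arrays. Its relatives could share the probe, so its identity is uncertain. Sfi1, a centrosome protein, lay at -3.25, -2.45, -2.74 and -1.99 in month 3, against -6.94, -5.98, -5.89, -5.93 and -7.07 in month 2 (log2 3.76, SE 0.34, adjusted p = 9.7e-08). Klhl1 and Mcm8 were well above background on 1 and 2 of the 5 month 2 arrays, and changed by 3.34 and 2.97. Among all 15 greatest rises, 4 were well above background on no month 2 array. Such genes could pass the filter through month 3 alone, where they are high, so their calls are no independent support. Proz, among them, was well above background on all 4 month 3 arrays and was put at 8.18-fold higher. The same was true of Acot3 and Rsph4a, whose probes hold repeats, put at 18.2-fold and 12.8-fold higher. For these folds each month 2 array counted at its lowest well-above-background signal, or at the probe's reading where that was greater. Acot3 read -7.4, -7.69 and -7.03 on month 2 replicates 2, 3 and 5, where that lowest signal was -8.42, -8.21 and -8.95. There its fold rests on readings that were not well above background. Folds reckoned in this way are therefore uncertain and are not firm lower limits.

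Some named members of lists rest on repeat probes too. Itgam, the integrin of myeloid cells, read 2.4, 3.67, 3.94 and 3.55 in month 3, against 1.14, 1.16, 1.3, 2.15 and 1.02 in month 2 (log2 2.04, SE 0.25, adjusted p = 5.6e-06), and its other probes, dim on some arrays, changed by -0.37 and 0.45. For Cat, catalase, the repeat probe was called higher, and another probe, well above background on all 9 arrays, changed by -0.67 (SE 0.20). The probes of Cat thus disagreed in sign. Csf3r (log2 1.3), Fzd4 (0.63), Nebl (0.74) and Mef2a (0.75) were higher and Mef2d (-0.69) was lower on repeat probes, and another probe of Mef2d changed by 0.01 (SE 0.19). Among the lower calls counted or named above, Fkbp4, Atf6, Mrps11, Psmb2, Med25 and Mme were also read by repeat probes.

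The remaining lists held few calls. Cell cycle genes had 1 of 25 higher, Hmmr, a spindle and hyaluronan-binding protein, at -3.04, -1.79, -2.16 and -1.85 in month 3, against -3.93, -4.11, -3.69, -3.44 and -3.84 in month 2 (log2 1.59, SE 0.19, adjusted p = 4.4e-06), and 1 lower, Cenpa, the centromeric histone, at -1.67, -2.29, -2.32 and -2.07 in month 3, against -1.53, -1.36, -1.36, -1.17 and -1.58 in month 2 (log2 -0.69, SE 0.13, adjusted p = 0.00071). Among p53 targets and apoptosis genes 3 of 27 were higher and 2 lower, near the 8.96% and 9.72% over all genes. The higher were the death receptor Fas, the pore-forming Bax and the stress sensor Sesn2 at log2 0.66, 0.58 and 0.58. The lower were Ccng1 and Ei24 at -0.58 and -0.66. None was higher and 2 were lower with near-identical arrays averaged, and with the slide block 1 was higher and 2 lower. Antioxidant genes had 2 of 39 higher (Keap1 at 0.55 and Cat) and 2 lower (Prdx1 at -0.48 and Prdx3 at -0.33). In the clock list the period gene Per1 lay at -0.3, 1.75, 1.85 and 2.14 in month 3, against 0.25, 1.06, 0.15, -0.67 and 0.31 in month 2 (log2 1.14, SE 0.38, adjusted p = 0.038), and Dbp, an output gene of the clock, at 1.47, 1.09, 1.34 and 2.14 in month 3, against 2.71, 2.22, 2.23, 1.95 and 2.28 in month 2 (log2 -0.77, SE 0.2, adjusted p = 0.011). Replicate 1 of month 3 lay far below its group on Per1, and the time of day at which tissue was taken is not in the labels.

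Signalling lists were as sparse. Of 28 genes of the TGF-beta, BMP and activin pathway the receptor Bmpr2 was higher by 0.42 (adjusted p = 0.018) and the receptor Bmpr1a lower (log2 -0.63, adjusted p = 0.0025). Of 21 Wnt genes the receptor Fzd4 was higher and the ligand Wnt9a lower (log2 -0.71, adjusted p = 0.0074). Of 29 growth factor and kinase genes the insulin receptor substrates went apart: Irs2 lay at -1.62, 0.78, 0.64 and -0.2 in month 3, against -1.61, -0.46, -1.37, -1.76 and -1.71 in month 2 (log2 1.28, SE 0.36, adjusted p = 0.016), and Irs1 at -0.51, -1.17, -0.94 and -1.24 in month 3, against -0.59, 0.39, -0.36, -0.12 and -0.6 in month 2 (log2 -0.71, SE 0.19, adjusted p = 0.011). Another probe of Irs1 changed by 0.54 (SE 0.31), against the sign of the probe in use. On Irs2 replicate 1 of month 3 was at the level of month 2, and neither slide-blocked fit passed (adjusted p = 0.14 for Irs2 and 0.13 for Irs1). Ednra, the endothelin receptor of muscle, was the 1 call of 16 in its list, lower (log2 -0.39, adjusted p = 0.016), and Gnai2, an inhibitory G protein subunit, the 1 call of 20 adrenergic genes, higher by 0.41 (adjusted p = 0.049). Cardiac transcription factors had 2 of 26 higher, Tbx3 at 0.56 and Mef2a, and 4 lower, Smyd1 at -0.71, Mef2d, Irx4 at -0.52 and Mef2c at -0.51. Over all genes 8.96% were higher and 9.72% lower. None of the 6 passed with near-identical arrays averaged or with the slide block. Among 40 cytosolic ribosome genes 1 was higher and 1 lower, and none of 22 immediate early genes passed. In the erythroid list 1 of 7 tested markers was lower. No marker of epicardium, nerve or B cells was called.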

How the data were processed

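Total RNA of mouse right ventricle was labelled with Cy3 and hybridised to 1-colour Agilent mouse arrays, 24 in all, of which 4 are month 3 and 5 month 2 after PSPI surgery. Per the file headers, the deposited scanner files hold spot intensities on a linear scale, and the processed signal used here had been background-subtracted by Agilent Feature Extraction, version 10.7.3.1 per the submitters' processing notes. The deposited value table was equal to the background-subtracted net intensity of the same spots and was used as an alternative. Samples were grouped by their titles, and slide positions came from the file headers.

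Control spots and outlier flags were left out. The log2 of each processed intensity, as deposited, was set against the array's 75th percentile, taken over 16956 probes that every one of the 24 arrays detected well above background. Of 55681 probes 21055 were kept, namely where at least 1 group detected the probe so on all its arrays. The brightest kept probe by mean log2 stood for its gene, which gave 12480 genes, 2837 of them with more than 1 kept probe. Month 3 minus month 2 was tested with limma 3.58.1 (R 4.3.3), a fit of 4 group means with 20 residual degrees of freedom. Benjamini-Hochberg adjustment and a threshold of 0.05 were used. The fit was also run on simulated data with independent noise. Those data held no slide effects and no near-identical arrays, so that run says nothing about either. Tables were made with Python 3.11.15, pandas 2.3.3 and numpy 2.4.6.

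Arrays of 1 group were called near-identical where they lay under 0.45 apart over the 1000 most variable probes, and averaging them left 18 samples (3 of month 3, 4 of month 2). Replicate numbers were not taken to pair the samples. The correlations of same-numbered arrays were 0.2363, -0.2083, 0.0048 and -0.1012, and those of other pairs ranged over -0.4466 to 0.3821. So few values cannot exclude a pairing. Named by rule were the 15 greatest rises and falls that also passed with near-identical arrays averaged, up to 3 members of each list with the smallest p, and 11 genes always, without genes of chromosome Y and of a set of multicopy families that did not hold Hsd3b2. Xist was 1 of the 11 and was not tested, since none of its 2 probes was well above background on any array of either month. Other genes were named after their values were seen, and some named by the rule are not reported here. Members, lists and rule were chosen with earlier results of these data known. Alternatives were other scalings, background corrections, filters, slide terms, averaging, array weights and leaving out each array. The number of arrays limits the precision.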

Additional observations from a re-analysis of the deposited data

Results flagged for a closer look

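In 22 cases among 352 groups of 4 or 5 arrays (176 genes named in the text), 1 array stood apart from the rest of its group by Dixon's criterion. Chance flags about 1 in 20 such groups. Levels are log2, relative to the 75th percentile of the array.

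Replicate 4 of month 3 stood apart on 8 genes. It was high on the interferon genes Ifit3 (-1.58, others -2.59 to -2.52) and Bst2 (-0.71, others -1.47 to -1.42), and on the atrial light chains Myl4 (-0.30, others -2.10 to -1.86) and Myl7 (-5.91, others -7.27 to -7.06). It was low on Prdx3 (1.04, others 1.37 to 1.42), Irx4 (-1.58, others -1.30 to -1.29), Acads (-1.36, others -0.77 to -0.73) and S100a8 (-5.04, others -2.98 to -2.84).

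Replicate 1 of month 3, the array of that month on slide 2, stood apart on 7 genes. It was low on Atp2b4 (-4.96, others -4.10 to -3.96), Keap1 (-0.94, others -0.31 to -0.22), Per1 (-0.30, others 1.75 to 2.14) and Tbx3 (-0.46, others -0.12 to -0.06). It was high on Mef2d (-2.34, others -3.42 to -3.35), Gp9 (-2.72, others -5.08 to -4.78) and Polg (-1.45, others -1.73 to -1.70). On Atp2b4, Keap1, Per1, Tbx3, Mef2d and Polg its level lay within the month 2 range.

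In month 2, replicate 4 was high on the repeat-probe genes Fmn2 (-2.96, others -5.09 to -4.55), Aff3 (-2.52, others -3.95 to -3.70) and Itgam (2.15, others 1.02 to 1.30). It was low on Ampd3 (-5.04, others -4.38 to -4.24) and Dpt (-1.01, others -0.45 to -0.32). Replicate 2 was high on Ednra (0.80, others 0.41 to 0.52), and replicate 5 was low on Mef2d (-2.70, others -2.39 to -2.30).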

How the results depend on the processing

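The count of 2331 genes past the threshold moved by over 1.5 times under these settings: 1294 with normexp background correction, 1290 in the deposited table, 1157 with the 9 arrays of both months alone, 921 with slide as a fixed block, 33 within slide 2, 190 within slide 3, 1070 with near-identical arrays averaged and 5416 with array weights. Averaging near-identical arrays of 1 slide with slide as a block, a setting chosen after seeing the data, gave 583. Unadjusted, 1201 genes within slide 2 and 2239 within slide 3 had p under 0.05. Leaving out 1 array gave 1402 (without replicate 3 of month 3) to 3727 (without replicate 1 of month 3). The labels' numbers were not taken as pairs, and with a replicate block over numbers 1 to 4 there were 341 calls. The remaining settings gave 1934 to 3072.

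Of the 160 called genes named in the text, 90 kept their call with near-identical arrays averaged, 79 with the slide block, 114 with normexp correction and 114 to 158 when 1 array of month 3 was left out. Those that changed sign did so within slide 2, where 1 month 3 array stands alone and is assumed to vary like the other groups (Gnai2 -0.05, Pgk1 0.10, Per1 -0.50, Irs2 -0.32, Mef2d 0.01, Ccl2 0.16, Cct2 0.01, Dnajb9 0.04, Psmb8 -0.06). Others turned without simple-repeat probes (Ulk3 -0.30, Cat -0.67, Itgam -0.37, Mef2d 0.01), where another probe then reads the gene. With the mean of a gene's kept probes Cacnb2 gave 0.0 and Dnajb9 0.13. With normexp correction and in the deposited table Mme gave 0.01 and 0.11 and Mrgprh 0.02 and 0.09, and the cause was not tested. Of 33 list medians 31 or more stayed within 1 SD under each setting but these: 25 with the percentile over all probes, which puts the median of all genes at -0.16, against -0.02, 30 in the deposited table, 23 within slide 2 and 24 within slide 3. Dim probes near background limit the falls and rises of low genes.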
